A study of Gallus gallus with 16 samples.

Results

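The comparison described here sets the jejunum of 8 broiler chickens on diets F and H against that of 8 on diets A and E, and follows every one of 20804 probe sets on the array. It takes the mean of diets F and H minus the mean of diets A and E, and it uses all 16 arrays of the series. All birds were male broilers (Gallus gallus) sampled on day 21, with 4 birds on each diet, and each array held the RNA of 1 bird. The title of the series names an essential oil blend of star anise, rosemary, thyme and oregano and also saponins as the feed additives under study. The labels give each diet only by its letter and do not say which additive a letter carried or which diet was the control, so the difference is not read as the effect of an additive. It is a difference between 2 pairs of diets. Values are the authors' processed log2 intensities, on which a difference of 1 stands for a doubling. A positive difference means a higher level on diets F and H.

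The jejunum is the main site of digestion and absorption in the chicken. Stem cells at the base of its crypts divide, and their offspring move up the villus and mature into enterocytes, which carry digestive enzymes and transporters, or into goblet and enteroendocrine cells. Below the epithelium lie fibroblasts with their matrix, vessels, smooth muscle and immune cells, and an RNA extract of the gut wall holds all of them. Immediate early genes encode transcription factors and feedback inhibitors that cells switch on quickly after growth factors or stress. NF-kappa-B target genes include chemokines and the inhibitors that end the response.

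Enterocyte markers were high on every array. The mean of 19 enterocyte markers lay between 11.12 and 11.69 in every bird, whereas those of 11 pancreas acinar markers and of 13 markers of enteric neurons and glia did not exceed 5.17 and 5.06. That of 12 smooth muscle markers lay between 5.5 and 6.25. These markers do not tell jejunum from other parts of the gut. Mean correlations of an array with the others were 0.97 to 0.98. Of the variance over all probe sets, 22.8% lay along the first principal component, and 4 arrays stood farthest out on it, which were replicates 1 and 2 of diet A, replicate 2 of diet E and replicate 4 of diet H. The 3 from diets A and E had the lowest enterocyte means of the series, at 11.12 to 11.23. They lay at the low end of the component (-42 to -31.4), and replicate 4 of diet H lay at the high end (47.8). Replicate 4 of diet E came next in distance, at 29.6, and stayed in. Leaving out these 4 arrays was an alternative chosen after seeing the data, and its values stand beside the main ones for the results below that it bears on. It takes opposite ends from the 2 pairs of diets, so differences along this component were likely to shrink from the start. The numbers in the sample titles also follow the diets. Diet F held 16, 17, 41 and 42, diet H 21, 22, 46 and 47, diet A 4, 5, 26 and 27, and diet E 11, 12, 36 and 37. Within the numbers up to 25 and within those over 25, birds on diets F and H always have the later numbers, so the diets and the order of the titles cannot be told apart. The labels do not say what the numbers stand for.

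PURG, a member of the PURA family of nucleic acid binding proteins, was the 1 gene that passed the test, and it was higher on diets F and H. Its log2 level had a lowest value of 6.57, a median of 6.95 and a highest value of 7.19 in the 8 birds on diets F and H, against 6.08, 6.40 and 6.60 in the 8 birds on diets A and E. All but 1 bird on diets F and H lay above every bird on diets A and E, so the groups overlapped by a single bird. The difference was 0.55 (SE 0.0736, 95% confidence interval 0.39 to 0.71), with limma's adjusted p of 0.0346 over all probe sets. By diet the means were 6.72 ± 0.12 for F, 7.12 ± 0.05 for H, 6.24 ± 0.15 for A and 6.49 ± 0.12 for E (SD, n = 4 each). Diet H minus diet E gave 0.63 and diet F minus diet A gave 0.47 (SE 0.104 each), and these differences share no bird. Together they make up the contrast in which PURG was picked, so their like direction was likely from the start.

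The size of the PURG difference moved little between fits, while its call was not stable. All fits reuse the birds in which PURG was singled out by its small p, so they do not test its size independently. With any 1 bird left out, the difference stayed between 0.52 and 0.58, but limma's adjusted p passed 0.05 in only 2 of 16 such fits. Those were the fits without replicate 3 of diet A (adjusted p = 0.0167) and without replicate 4 of diet F (adjusted p = 0.049), and in the other 14 it ran between 0.0563 and 0.152. The main fit measures only the spread between birds on the same diet. Limma's adjusted p was 0.268 with 1 mean per pair of diets and 0.951 with neighbouring title numbers averaged. The difference was 0.58 among title numbers up to 25, 0.53 among those over 25 and 0.52 without the 4 far-out arrays, with limma's adjusted p of 0.109, 1 and 0.432.

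**Figure D1:**
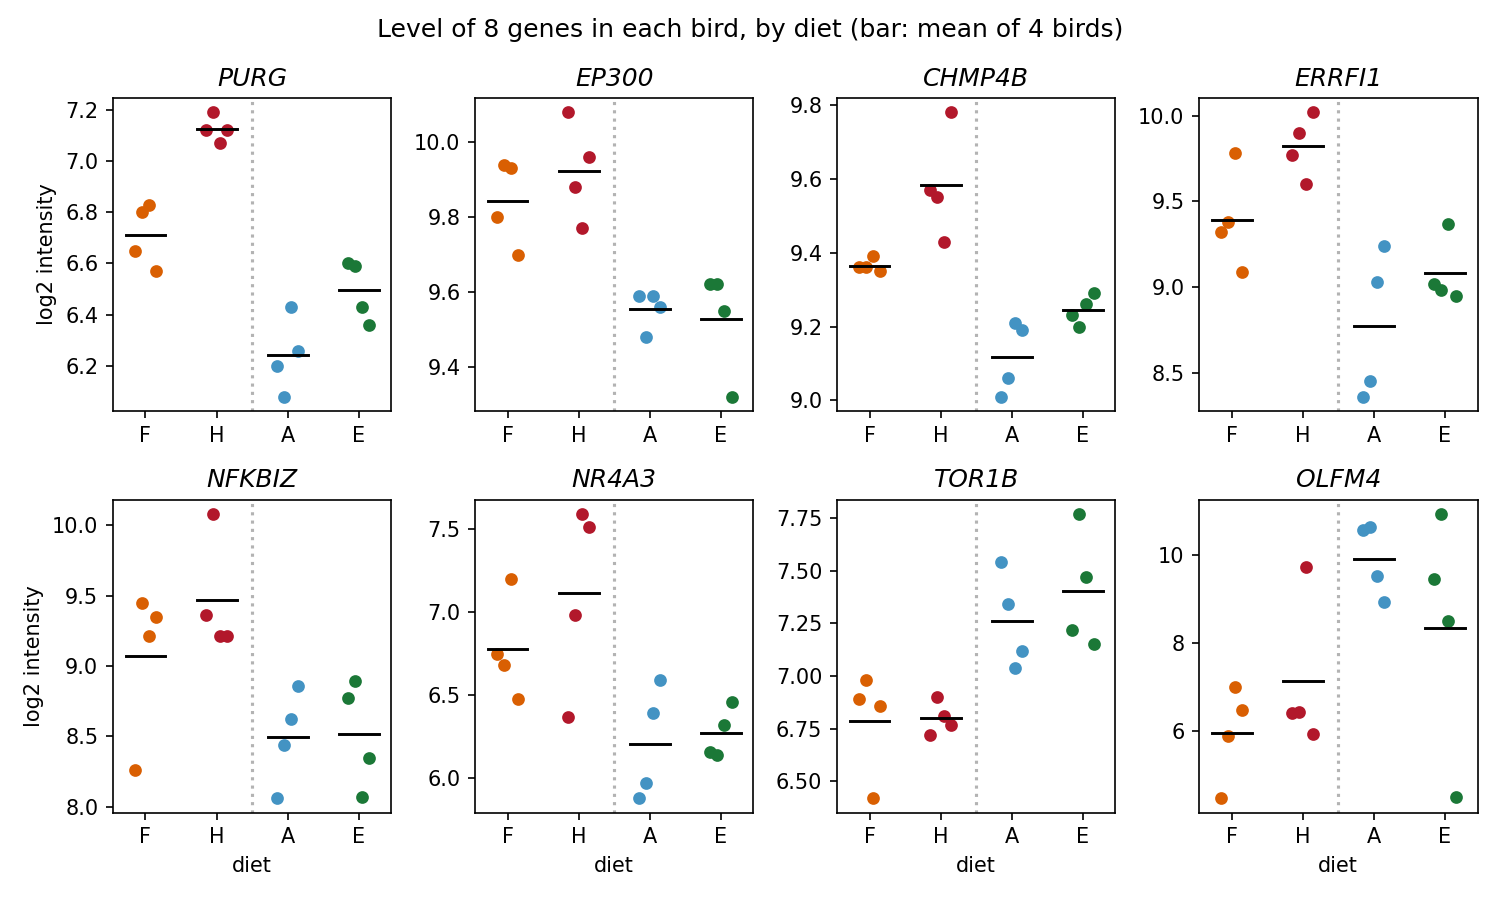
Log2 intensity of 8 genes in each of the 16 birds (points) by diet, with diets F and H left of the dotted line and diets A and E right of it; each bar is the mean of 4 birds. In EP300 and CHMP4B all 8 birds on diets F and H lay above the other 8, in TOR1B all 8 lay below, and in OLFM4 1 bird on diet H (9.73) and 1 on diet E (4.52) lay far from the rest of their pair of diets.

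Across the array, 1 of 20804 probe sets passed at an adjusted p under 0.05, a share of 0.00481%. Before adjustment, limma gave 1800 (8.65%) a p under 0.05, of which 878 (4.22%) were higher and 922 (4.43%) lower on diets F and H. By direction alone, 49.6% of all probe sets were higher and 50.4% lower. The median difference of all probe sets was -0.001, and 80% of them lay between -0.211 and 0.223. The 8 birds on diets F and H all lay above the 8 on diets A and E in 4 probe sets (0.0192%) and all below in 4 (0.0192%). Of these 8 probe sets, 3 carry a gene symbol, and they are EP300, CHMP4B and TOR1B.

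None of the other genes with small p passed the test, and they are given as values. EP300, a histone acetyltransferase that acts as a coactivator of transcription, had values of 9.70, 9.91 and 10.08 (lowest, median, highest) on diets F and H and 9.32, 9.57 and 9.62 on diets A and E. The 2 sets of birds did not overlap, and the difference was 0.34 (SE 0.0736, limma's adjusted p = 0.351). A second probe set of EP300, at a lower mean level of 6.19, had a difference of 0.11. CHMP4B, a subunit of the ESCRT-III complex that cuts membrane necks, had 9.35, 9.41 and 9.78 on diets F and H and 9.01, 9.20 and 9.29 on diets A and E. Here too no bird crossed over, with a difference of 0.29 (SE 0.0666, limma's adjusted p = 0.351). EP300 kept 0.34 and CHMP4B 0.21 without the 4 far-out arrays.

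ERRFI1, an inhibitor that closes the feedback loop of the EGF receptor, had 9.09, 9.69 and 10.02 on diets F and H and 8.36, 9.0 and 9.37 on diets A and E. In 6 of 8 birds on diets F and H it exceeded every bird on diets A and E, with a difference of 0.68 (SE 0.139, limma's adjusted p = 0.31). The difference was 0.89 among title numbers up to 25, 0.48 among those over 25 and 0.45 without the 4 far-out arrays. The zinc finger transcription factor EGR1 differed by 0.36 (SE 0.0859, limma's adjusted p = 0.401). Its lowest bird on diets F and H, at 7.46, lay inside the range of diets A and E, 7.26 to 7.62, and the other 7 lay above it.

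Among the remaining higher genes, LUZP1 (0.44) encodes a leucine zipper protein of the cytoskeleton, CCNL2 (0.40) a cyclin linked to splicing of pre-mRNA, and RNF223 (0.69) a RING finger protein. FAM204A differed by 0.57 and EBAG9 by 0.40. The microRNA genes MIR20B and MIR1654-1 differed by 0.49 and 0.71. MIR20B averaged 4.34 on diets F and H and 3.85 on diets A and E, both under the lower quartiles of the arrays (4.45 to 4.61), where background may enter a value. The probe set of MIR1654-1 has a twin with the same 16 values. Limma's adjusted p was 0.31 to 0.401 for the 11 genes other than PURG.

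On the lower side, TOR1B, an ATPase of the torsin family in the endoplasmic reticulum and nuclear envelope, had 6.42, 6.83 and 6.98 on diets F and H against 7.04, 7.28 and 7.77 on diets A and E. No bird on diets F and H reached the lowest bird on diets A and E, and the difference was -0.54 (SE 0.112, limma's adjusted p = 0.31). ING2, a reader of methylated histone H3, differed by -0.46 and TAF1D, a subunit of the RNA polymerase I promoter factor SL1, by -0.42. A second probe set of ING2 gave -0.11, and the other 4 of TAF1D gave -0.27 to -0.07. The ribosomal protein gene RPL23A had -0.44, MARC1, a reductase of the mitochondrial outer membrane, -0.35, and SLC25A28, a mitochondrial iron carrier, -0.28. SLC51AL had -0.54, LOC426897 -0.47 and LOC427882 -1.01.

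DPT, a small matrix protein, had 3.33, 3.80 and 5.29 on diets F and H and 3.98, 5.14 and 6.02 on diets A and E. In 6 of 8 birds on diets F and H it lay below every bird on diets A and E, while replicate 3 of diet H reached 5.29, with a difference of -1.11 (SE 0.281, limma's adjusted p = 0.431). The collagen VI chain COL6A6 differed by -0.54 and its second probe set by -0.48, and the bradykinin receptor BDKRB2 by -0.60. Means of all 3 on diets F and H lay between 3.94 and 4.41, under the lower quartiles of the arrays. Over the 24 genes, no difference changed sign in any alternative setting. They were picked for small p in this same contrast, so a turn was unlikely from the start. In 22 of them the difference was larger among title numbers up to 25 than among those over 25. Without the 4 far-out arrays the 12 higher genes had differences of 0.21 to 0.56 and the 12 lower ones -0.66 to -0.22.

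**Figure D2:**
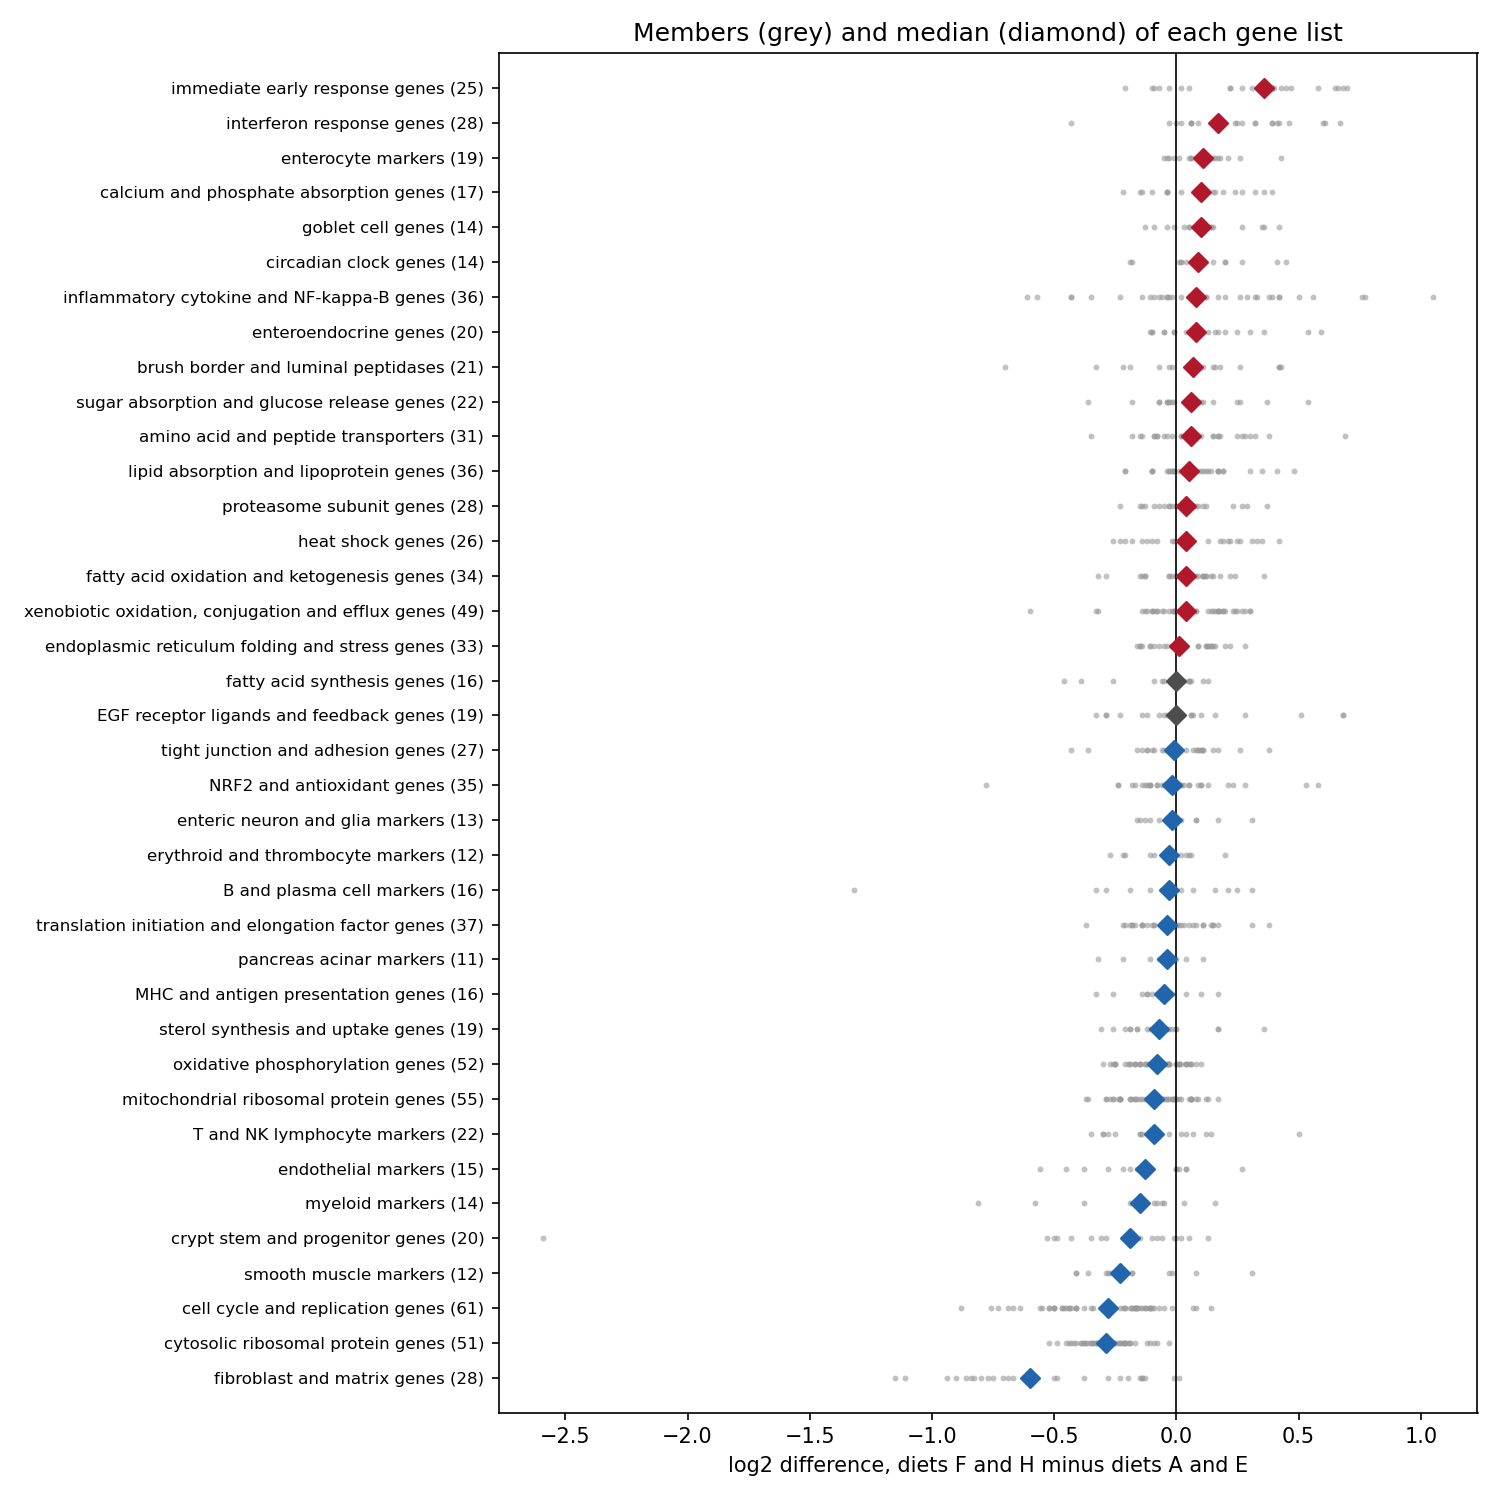
Log2 difference, diets F and H minus diets A and E, of each measured member (grey points) of 38 gene lists and the median of each list (diamond), with the number of members in brackets. The median of 25 immediate early genes was highest at 0.36, and those of 51 cytosolic ribosomal protein genes (-0.29) and 28 fibroblast and matrix genes (-0.60) were lowest.

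The 38 lists of cell types, processes and nutrient handling held 976 measured genes, and none passed the test over all probe sets. Their members are described by direction and by the number with an unadjusted p under 0.05. These numbers are to be read beside the shares over the whole array, 4.22% higher and 4.43% lower. For the fit without the 4 far-out arrays they are to be read beside 949 of 20804 probe sets, in either direction. In a bulk extract, fewer cells of a type and less RNA per cell cannot be told apart. Members of a list vary together between birds, so they are not independent observations, and 28 genes stand in more than 1 list, among them ERRFI1, MAFF and MEP1B.

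Immediate early genes had the highest median. Of 25 measured, 20 were higher and 5 lower on diets F and H, 13 had an unadjusted p under 0.05 and all 13 were higher, and the median difference was 0.36. The mean of the list had 7.57, 7.88 and 8.16 (lowest, median, highest) on diets F and H and 7.26, 7.62 and 7.77 on diets A and E. All but 1 bird on diets F and H had a higher list mean than any bird on diets A and E. Beside ERRFI1 and EGR1, the leading members were the orphan nuclear receptor NR4A3 (0.70), the stress-induced transcription factor ATF3 (0.65) and the small MAF protein MAFF (0.58). NR4A3 had 6.37, 6.86 and 7.59 on diets F and H and 5.88, 6.24 and 6.59 on diets A and E, with 6 of 8 birds above the whole range of diets A and E. JUN had 0.39, and the MAP kinase phosphatases DUSP1, DUSP6 and DUSP8 had 0.43, 0.39 and 0.27. The median was 0.42 in diet F minus diet A and 0.24 in diet H minus diet E, and 18 of 25 were higher in both. It was 0.46 among title numbers up to 25 and 0.18 among those over 25. Without the 4 far-out arrays it was 0.16, with 20 of 25 still higher and 6 at an unadjusted p under 0.05. In that fit 949 of all 20804 probe sets had such a p.

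Of 36 inflammatory cytokine and NF-kappa-B genes, 21 were higher and 15 lower, with a median of 0.08 and differences from -0.61 to 1.05. The members with small p all lay on the higher side, 11 against 0. NFKBIZ, a nuclear inhibitor-like regulator of NF-kappa-B, had 8.26, 9.28 and 10.08 on diets F and H and 8.06, 8.53 and 8.89 on diets A and E. All birds on diets F and H except replicate 1 of diet F exceeded the range of diets A and E, and the difference was 0.76 (SE 0.195, limma's adjusted p = 0.439). IL8L1, a chicken chemokine related to interleukin 8, had 5.06, 6.83 and 7.86 on diets F and H and 4.41, 5.81 and 6.32 on diets A and E. The groups overlapped in 3 birds on diets F and H, and the difference was 1.05 (SE 0.295, limma's adjusted p = 0.449).

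CCL20, a chemokine that draws lymphocytes and dendritic cells to the epithelium, differed by 0.77 (SE 0.221, limma's adjusted p = 0.449). The feedback inhibitors TNFAIP3 and NFKBIA had 0.38 and 0.39, and the NF-kappa-B subunit NFKB1 had 0.33. The cytokines IL18 and TNFSF15 had 0.56 and 0.42, and NOS2, the inducible nitric oxide synthase, had 0.26. NFKBIZ and CCL20 were much alike in both ranges of title numbers, with 0.75 and 0.77 for NFKBIZ and 0.76 and 0.77 for CCL20 (up to 25, over 25). IL8L1 was less alike, with 1.26 and 0.83. Without the 4 far-out arrays NFKBIZ had 0.74, CCL20 0.75 and IL8L1 0.83. In the list, whose median was then 0.11, 28 of 36 lay higher. With all arrays, the lists of immune cell markers had medians under 0. Of 14 myeloid markers 2 were higher and 12 lower (median -0.15). Of 22 T and NK lymphocyte markers 6 were higher and 16 lower (median -0.09). Of 16 B and plasma cell markers 6 were higher and 10 lower (median -0.03). The B and plasma cell median turned to 0.10 without the 4 far-out arrays, with 13 higher and 3 lower. Among title numbers up to 25 it was -0.25, with 4 higher, and among those over 25 it was 0.11, with 12 higher. The myeloid median was -0.02 without the 4 far-out arrays, with 7 higher and 7 lower, and the lymphocyte median 0.00, with 10 higher and 12 lower. The myeloid median was -0.06 without replicate 2 of diet E alone, and the lymphocyte median -0.01 without replicate 4 of diet H alone. Of the 22 lymphocyte markers, XCL1, a lymphocyte chemokine, was the 1 with an unadjusted p under 0.05, at 0.50.

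Interferon response genes were mostly higher, 25 of 28, and their median was 0.17. An unadjusted p under 0.05 was reached by 3. The antiviral GTPase MX1 had 10.49, 11.52 and 12.07 on diets F and H and 9.81, 11.04 and 11.68 on diets A and E. The ranges overlapped widely, with 2 birds on diets F and H above all others, and the difference was 0.61 (SE 0.288, limma's adjusted p = 0.577). The RNA-activated kinase EIF2AK2 had 0.67 and PARP9 0.41. The median was 0.05 in diet F minus diet A and 0.32 in diet H minus diet E. It was 0.15 among title numbers up to 25, 0.23 among those over 25 and 0.23 without the 4 far-out arrays. With 1 bird left out it ran from 0.11 (without replicate 1 of diet A) to 0.29 (without replicate 1 of diet F). Without replicate 1 of diet A alone MX1 had 0.43, EIF2AK2 0.47 and PARP9 0.27.

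**Figure D3:**
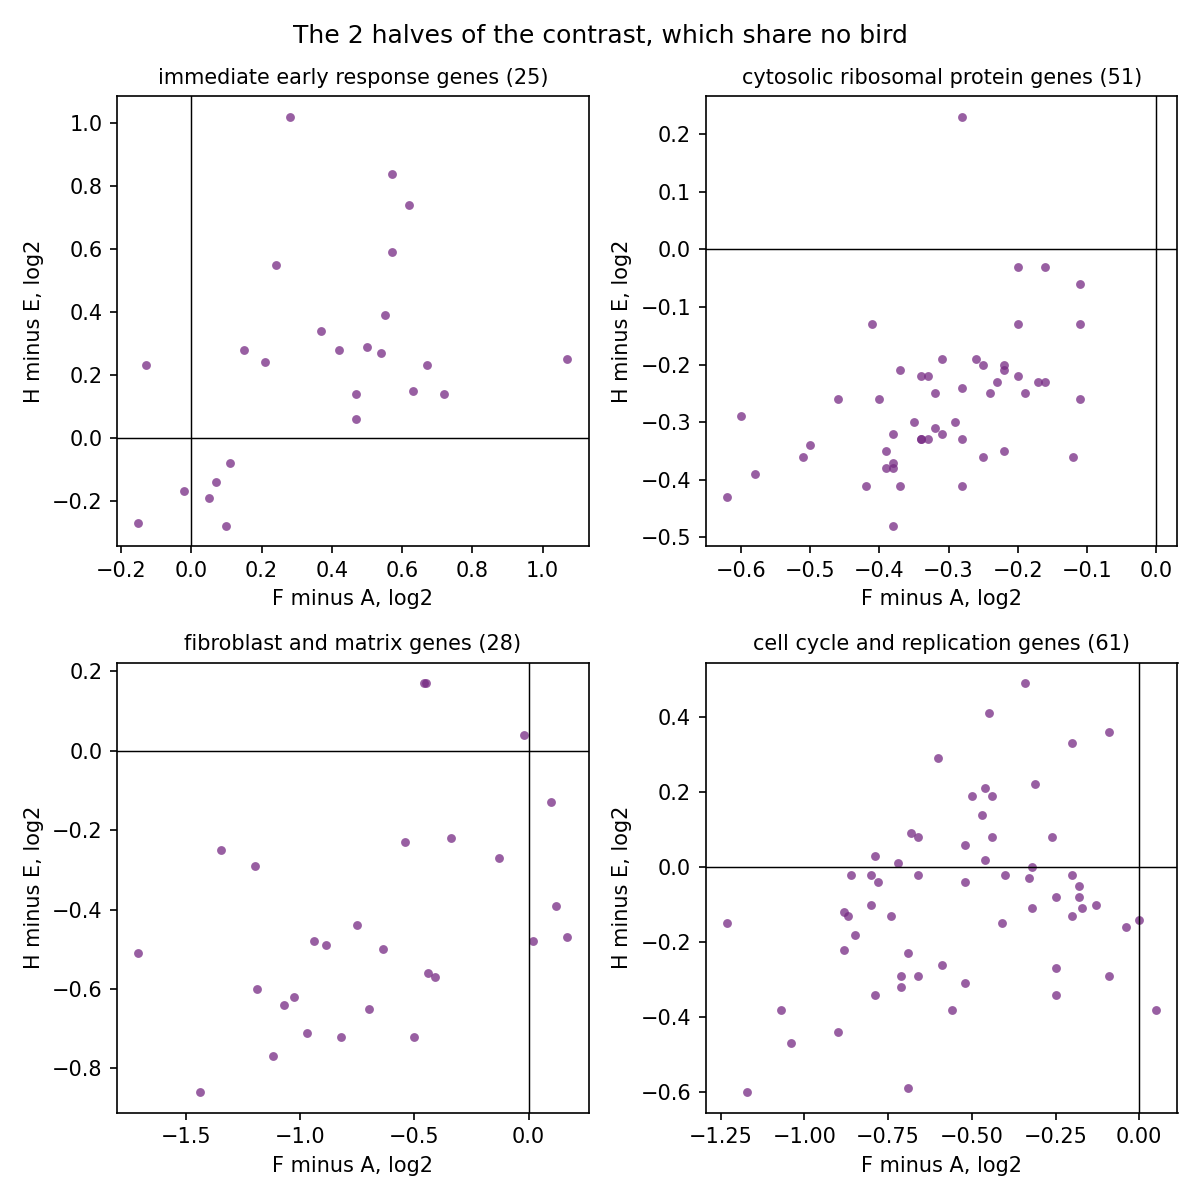
Log2 difference of diet F minus diet A (horizontal axis) and of diet H minus diet E (vertical axis) for every measured member of 4 gene lists; the 2 differences share no bird. Of the cytosolic ribosomal protein genes 50 of 51 were below 0 on both axes, of the immediate early genes 18 of 25 were above 0 on both, and the median of the cell cycle genes was -0.52 on the horizontal and -0.10 on the vertical axis.

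Cytosolic ribosomal protein genes were lower throughout. All 51 had a negative difference, 30 of them with an unadjusted p under 0.05, and the median was -0.29. The list mean had 9.47, 9.79 and 9.98 on diets F and H and 9.67, 9.95 and 10.51 on diets A and E. The ranges overlapped, with 3 birds on diets F and H below all on diets A and E. RPL35A differed by -0.41 (SE 0.109, limma's adjusted p = 0.449), RPL8 by -0.34 and RPL10A by -0.52. The median was -0.31 in diet F minus diet A and -0.26 in diet H minus diet E, and 50 of 51 were lower in both. It was -0.47 among title numbers up to 25 but -0.09 among those over 25. Without the 4 far-out arrays it was -0.08, with 41 of 51 lower and 2 at an unadjusted p under 0.05. That fit gave such a p to 949 of all 20804 probe sets.

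Mitochondrial genes lay lower by less. Of 55 mitochondrial ribosomal protein genes 42 were lower, 12 with an unadjusted p under 0.05 against 1 higher, and the median was -0.09. Of 52 oxidative phosphorylation genes 38 were lower, 6 with an unadjusted p under 0.05, with a median of -0.08. Both medians were -0.02 without the 4 far-out arrays. Of 37 translation factor genes 15 were higher and 22 lower (median -0.04), among them EIF5B (0.38) and EIF3J (0.31) on the higher side and the elongation factor subunit EEF1D (-0.37) on the lower.

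Fibroblast and matrix genes had the lowest median, -0.60, and 27 of 28 were lower on diets F and H, 4 of them with an unadjusted p under 0.05. The list mean had 5.09, 5.25 and 6.44 on diets F and H and 5.11, 5.95 and 6.83 on diets A and E. These ranges overlapped almost wholly, and replicate 3 of diet H, at 6.44, lay near the top of both. After DPT the smallest p values belonged to osteoglycin (OGN, -0.80), tenascin C (TNC, -0.71) and fibulin 1 (FBLN1, -0.67). Larger differences with larger p were seen too, as in the matrix glycoprotein SPARC (-1.15) and the collagen VI chain COL6A2 (-0.94). The median was -1.13 among title numbers up to 25, -0.12 among those over 25 and -0.14 without the 4 far-out arrays. Without replicate 2 of diet E alone it was -0.40, and without replicate 4 of diet E alone -0.80. Of 12 smooth muscle markers 10 were lower (median -0.23), and of 15 endothelial markers 10 (median -0.13). These medians were, without the 4 far-out arrays, -0.05, with 5 higher and 7 lower, and 0.01, with 8 higher and 7 lower. With all arrays, 1 smooth muscle marker on each side had an unadjusted p under 0.05, TPM1 (0.31) higher and SYNPO2 (-0.41) lower. Among endothelial markers 1 higher, PECAM1 (0.27), and 3 lower ones did.

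Genes of cell division were lower as well. Of 61 cell cycle and replication genes 58 had a negative difference, 11 with an unadjusted p under 0.05, and the median was -0.28. The list mean had 5.32, 5.92 and 6.77 on diets F and H and 5.60, 6.27 and 6.78 on diets A and E, so the ranges overlapped almost wholly. Cyclin D1 (CCND1) had -0.88, the mitotic kinases CDK1 and PLK1 -0.73 and -0.76, and the replication licensing factor CDT1 -0.29. The list median was -0.52 in diet F minus diet A and -0.10 in diet H minus diet E. It was -0.55 among title numbers up to 25, -0.02 among those over 25 and -0.11 without the 4 far-out arrays. In that last fit 17 members were higher and 44 lower, and 0 had an unadjusted p under 0.05. CCND1 and CDT1 then had -0.35 and -0.17.

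In the crypt list, 16 of 20 stem and progenitor genes were lower, with a median of -0.19. OLFM4, a secreted glycoprotein of crypt base cells, had 4.48, 6.43 and 9.73 on diets F and H and 4.52, 9.50 and 10.94 on diets A and E. Its ranges overlapped because replicate 3 of diet H lay high and replicate 4 of diet E low, and the difference was -2.59 (SE 0.782, limma's adjusted p = 0.449). By diet the means were 5.97 ± 1.09 for F, 7.13 ± 1.74 for H, 9.92 ± 0.83 for A and 8.36 ± 2.75 for E (SD, n = 4 each). The difference was -4.60 among title numbers up to 25 and -0.58 among those over 25, and -1.62 without the 4 far-out arrays. LGR5, a receptor that marks intestinal stem cells, had -0.43 at levels under the lower quartiles of the arrays. The median of the crypt list was -0.01 without the 4 far-out arrays.

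**Figure D4:**
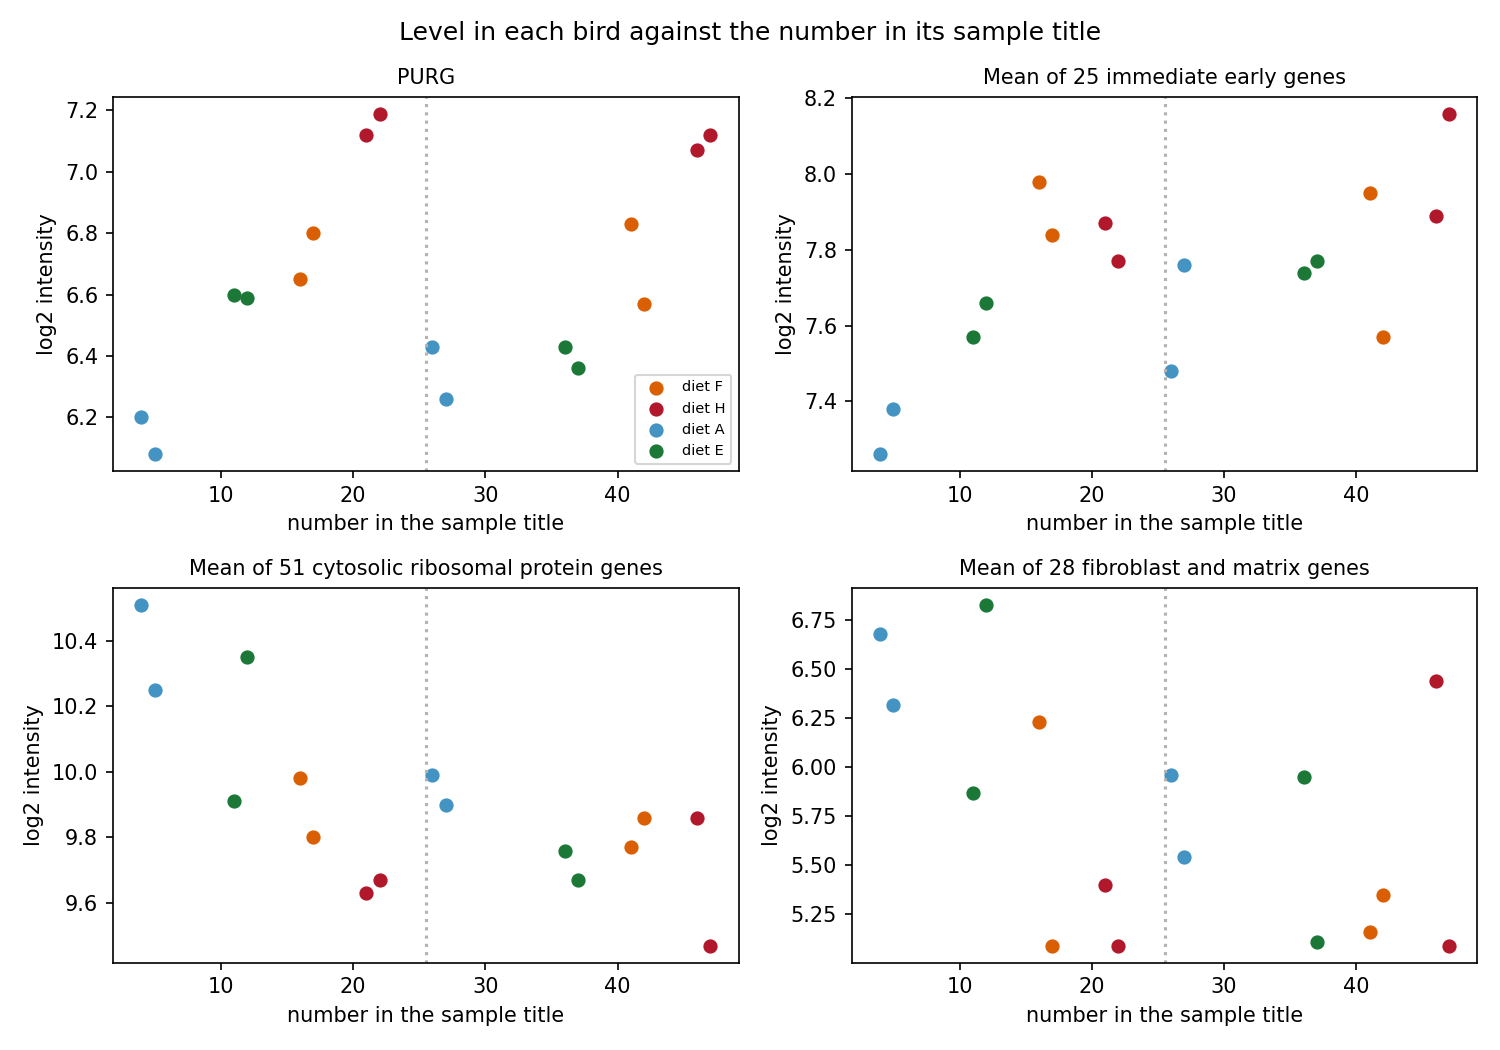
Log2 level of PURG and mean log2 levels of 3 gene lists in each bird against the number in its sample title, coloured by diet; the dotted line parts the numbers up to 25 from those over 25. PURG was higher on diets F and H in both ranges (differences 0.58 and 0.53), while the gap in the ribosomal and matrix lists came mostly from the lower range.

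Of 19 enterocyte markers 15 were higher, 2 with an unadjusted p under 0.05, with a median of 0.11 that became -0.03 both among title numbers over 25 and without the 4 far-out arrays. The epithelial adhesion protein EPCAM had 0.21 and the peptidase MEP1B 0.43. MEP1B had 0.24 without replicate 2 of diet E alone, and without the 4 far-out arrays EPCAM had 0.12 and MEP1B 0.13. Of 14 goblet cell genes 10 were higher (median 0.10), and the membrane mucin MUC13 (0.42) and the mucus protein FCGBP (0.36) had the smallest p. The median was 0.02 without replicate 1 of diet A alone. It was 0.07 without the 4 far-out arrays, with 0.17 for MUC13 and 0.10 for FCGBP. Of 20 enteroendocrine genes 13 were higher (median 0.08), with the smallest p in the granule proteins SCG2 (0.54) and SCG3 (0.36). The proglucagon gene GCG differed by 0.59 with a larger p. The list median was 0.05 without the 4 far-out arrays, and SCG2 and SCG3 had 0.34 and 0.22.

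Among transporters of the main nutrients, SLC5A1, the sodium glucose transporter SGLT1, had 12.31, 12.60 and 12.89 on diets F and H and 12.23, 12.49 and 12.77 on diets A and E. The ranges covered one another, and the difference was 0.07 (SE 0.0997, 95% confidence interval -0.14 to 0.28). The peptide transporter SLC15A1 differed by 0.17 (SE 0.149, 95% confidence interval -0.15 to 0.49), and both turned to -0.08 without the 4 far-out arrays. Of 31 amino acid and peptide transporters 20 were higher, with a median of 0.06 that was 0.01 without the 4 far-out arrays. An unadjusted p under 0.05 was reached by 3, all higher, which were SLC38A2 (0.69), SLC38A3 (0.38) and SLC36A4 (0.28). SLC38A2, a carrier of small neutral amino acids, had 9.03, 10.24 and 11.02 on diets F and H and 8.98, 9.51 and 9.83 on diets A and E. In 6 of 8 birds on diets F and H it exceeded all on diets A and E, with a difference of 0.69 (SE 0.189, limma's adjusted p = 0.449), made of 0.27 in diet F minus diet A and 1.11 in diet H minus diet E.

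Peptidases of the brush border (14 of 21 higher, median 0.07), sugar absorption genes (12 of 22, median 0.06), lipid absorption genes (24 of 36, median 0.05) and calcium and phosphate genes (10 of 17, median 0.10) had small medians. These were, without the 4 far-out arrays, 0.04, 0.00, -0.01 and 0.00. Without replicate 2 of diet E alone the peptidase, sugar and lipid medians were 0.00, -0.01 and 0.02, and without replicate 4 of diet H alone the calcium median was 0.02. Of 49 genes of xenobiotic oxidation, conjugation and efflux 31 were higher, with a median of 0.04, 1 with an unadjusted p under 0.05 higher and 2 lower. The glutathione transferase GSTA2 had -0.60 and the efflux pump ABCC3 -0.32, and -0.24 and -0.22 without the 4 far-out arrays. In the NRF2 and antioxidant list 15 of 35 were higher and 20 lower (median -0.02). An unadjusted p under 0.05 was reached by 3 higher and 3 lower members. The higher ones were the small MAF proteins MAFF (0.58) and MAFK (0.23) and the repressor BACH1 (0.53). The lower ones were the extracellular glutathione peroxidase GPX3 (-0.78), the mitochondrial thioredoxin reductase TXNRD2 (-0.24) and the superoxide dismutase SOD1 (-0.18), while HMOX1 had 0.03, NQO1 -0.01 and NFE2L2, which encodes NRF2 itself, 0.01.

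**Figure D5:**
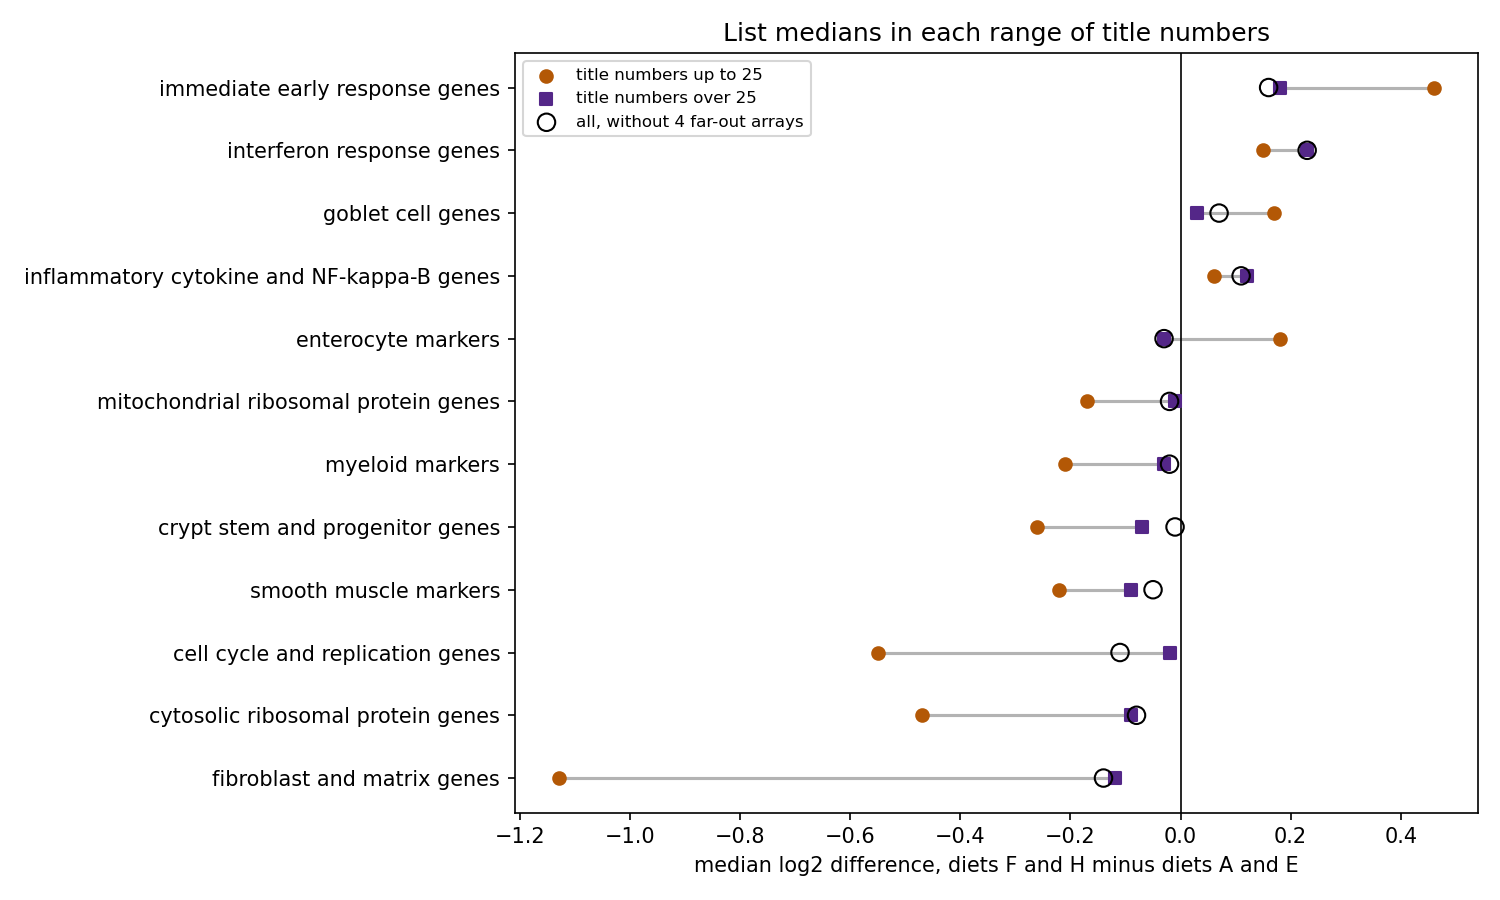
Median log2 difference, diets F and H minus diets A and E, of 12 gene lists among sample title numbers up to 25 (circles), among those over 25 (squares) and over all birds without the 4 arrays farthest out on the first principal component (open circles). The median of the matrix list was -1.13 among the lower title numbers and -0.12 among the upper, whereas those of the interferon and inflammatory lists were no smaller in the upper range (0.23 against 0.15 and 0.12 against 0.06).

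Diet F minus diet A and diet H minus diet E were set against each other in the same model. The labels do not say which of diets A and E belongs with F and which with H, so this matching is a choice. Matching F with E and H with A makes up the same contrast and was not tested. By limma's adjusted p, 0 probe sets passed in diet F minus diet A and 0 in diet H minus diet E. Unadjusted, 1421 (6.83%) and 1981 (9.52%) had a p under 0.05. The direction was the same in both differences for 49.8% of all probe sets, 25% higher in both and 24.8% lower in both. Limma's test of H minus E against F minus A called 0 probe sets, with a smallest adjusted p of 0.599. Before adjustment 1605 (7.71%) had a p under 0.05.

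The gene with the smallest p in that test was DPYS, the dihydropyrimidinase of pyrimidine breakdown. It averaged 5.05 ± 0.15 on diet F and 4.58 ± 0.27 on diet A, and 4.78 ± 0.14 on diet H and 5.31 ± 0.22 on diet E (SD, n = 4 each). Diet F lay above diet A and diet H below diet E in all birds, and H minus E differed from F minus A by -0.99 (SE 0.206, limma's adjusted p = 0.599). DPYS was picked for its small p in this test, so such a separation was likely from the start. How many of all probe sets separate this way was not counted. G6PC, the catalytic subunit of glucose-6-phosphatase, had 0.48 in diet F minus diet A and -0.25 in diet H minus diet E. PSAT1, an enzyme of serine synthesis, had 0.36 and -0.34, and ASB11 0.30 and -0.38. CINP ran the other way, with -0.55 in diet F minus diet A and 0.13 in diet H minus diet E. LOC420748 had 0.13 and -0.52, at a mean level of 3.02. PSAT1 did not exceed 4.06 in any bird and CINP ran from 4.08 to 4.76. Both lay under or around the lower quartiles of the arrays (4.45 to 4.61).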

How the data were processed

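The values are the authors' deposited log2 intensities of 20804 probe sets on 16 one-colour Affymetrix arrays, 1 per bird. GCOS version 1.1.1 is named per the submitters' processing notes. How probes were summarized, scaled and filtered is not given in the sources used here. Neither is the log base, which was taken as 2 from the range of 0.79 to 14.48. Array medians lay between 5.94 and 6.10. No signal over background is at hand, and the number of arrays limits precision.

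Gene symbols come from GEO's annotation of the platform. It gave 12300 probe sets 1 symbol, 256 several and 8248 (39.6%) none, and 11727 matched the RefSeq table of assembly GRCg7b by Entrez number. A gene in a list was represented by its probe set with the highest mean. Of all probe sets 1644 shared all 16 values with another and stayed in the tests.

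All arrays entered 1 limma model holding 1 mean for each diet (limma 3.58.1, R 4.3.3, lmFit and eBayes), leaving 12 residual degrees of freedom. P-values are two-sided, with Benjamini-Hochberg adjustment across all probe sets at 0.05, and a gene counts as changed if it passed. Figures used Python 3.11.15 and matplotlib 3.10.9. The fit was tested on simulated data with independent noise, which checks the code and not whether the calls hold here.

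The named genes were the 12 higher and 12 lower with the smallest p among probe sets with 1 symbol, 6 for H minus E against F minus A, up to 4 leading members per list, and PURG, ERRFI1, OLFM4, SLC5A1 and SLC15A1. Other list members named (among them ATF3, JUN, DUSP1, DUSP6, DUSP8, NFKBIA, NFKB1, IL18, TNFSF15, NOS2, RPL10A, EIF5B, CDK1, PLK1, BACH1, GPX3, TXNRD2, SOD1, SPARC, COL6A2, GCG, NFIL3, HMOX1, NQO1 and NFE2L2) were chosen after their values were seen. The comparison, its members and the 38 lists were chosen with earlier results of these data known, and 475 listed genes were not measured. Alternatives were scaling, a low-level filter, identical profiles once, the title number as block or covariate, neighbouring numbers as random block or averaged, array weights, an intensity trend, each range of title numbers alone, 1 mean per pair of diets, each bird left out, and the 4 far-out arrays left out. Replicates are numbered in accession order.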

Additional observations from a re-analysis of the deposited data

Results flagged for a closer look

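Diet F lay above diet A and diet H below diet E in every bird for DPYS, and H minus E differed from F minus A by -0.99 (limma's adjusted p = 0.599). DPYS was picked for its small p in that test, so such a separation was likely from the start.

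Single birds far from the other 7 of their pair of diets, by Dixon's test at the 95% level, appeared in 24 of 320 groups of 8. Chance flags about 1 in 20, or 16 groups here. All groups draw on the same 16 birds and each pools 2 diets, so 24 against 16 is not a test. Of the 24, 20 were on diets F and H and 4 on diets A and E, and replicate 4 of diet H was the far bird in 8. That bird was low for ING2 (10.46), CD3D (8.12) and the means of T and NK lymphocyte markers (6.34), mitochondrial ribosomal protein genes (7.34) and fatty acid synthesis genes (6.94). It was high for CDH17 (12.39) and the means of tight junction genes (7.25) and circadian clock genes (7.75). Replicate 3 of diet H was high for DPT (5.29), OGN (5.89) and ERG (5.52), and replicate 2 of diet H for MIR20B (4.77). Replicate 1 of diet F was high for RPS28 (7.20) and low for PARP9 (8.93), IFIH1 (7.84) and PSMD14 (8.35). Replicate 4 of diet F was low for TNFAIP3 (7.78), PPARD (8.32) and TLR4 (4.81), and replicate 3 of diet F for TOR1B (6.42). On diets A and E the far birds were all on diet E: replicate 1, low for EGR1 (7.26) and high for sterol synthesis genes (mean 9.66), replicate 3, low for MHC genes (mean 8.75), and replicate 4, low for OLFM4 (4.52).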

How the results depend on the processing

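No paired analysis was possible because the sample titles share no replicate numbers between diets and the replicates are numbered in accession order. The count of passing probe sets, 1 as reported, remained 1 (PURG) under quantile normalization, median centring, the low-level filter, identical profiles once, array weights and the intensity trend. It was 2 with the range of title numbers as block, where a probe set without a symbol was lower (-0.58). It was 0 with the title number as covariate (PURG adjusted p = 0.107), neighbouring numbers as random block (0.111) or averaged (0.951), either range alone (0.109 and 1), 1 mean per pair of diets (0.268), and without the 4 far-out arrays (0.432). Birds left out one at a time gave 0 to 3 passing probe sets. For H minus E against F minus A they gave 0 to 1, the 1 without replicate 4 of diet H. The difference of PURG stayed between 0.52 and 0.58 throughout. Signs turned for SLC5A1 with the title number as covariate (-0.04) and without the 4 far-out arrays (-0.08), where SLC15A1 (-0.08) and CDH17 (-0.01) turned too. Among title numbers over 25 alone they turned for C1QC (0.01), TUBB3 (-0.01), POLE2 (0.00), INSIG2 (-0.04), LSS (0.11) and FASN (0.02). The cause was not tested. Of the list medians recomputed, 1133 moved by less than the SD of the list mean between birds on the same diet and 7 by more. That yardstick is wide, so the tally does not show that medians held. By it the matrix median, -0.60 with all arrays and -0.12 among title numbers over 25, counts as moved by less. Small medians also changed sign. Read at 2 decimals, 7 of 38 did so without the 4 far-out arrays. Those were the enterocyte (-0.03), endothelial (0.01), translation factor (0.03), lipid absorption (-0.01), circadian (-0.09), B and plasma cell (0.10) and erythroid (0.06) medians. The enteric neuron and glia, NRF2, fatty acid oxidation and calcium medians turned there too, but round to 0.00. Among title numbers up to 25 alone 3 did by that reading, those of the tight junction (0.04), heat shock (-0.04) and proteasome (-0.02) lists. Among title numbers over 25 alone 8 did. Those were the enterocyte (-0.03), translation factor (0.01), lipid absorption (-0.05), sterol (0.11), fatty acid oxidation (-0.02), calcium (-0.03), B and plasma cell (0.11) and erythroid (0.08) medians. The fatty acid synthesis median, 0.00 with all arrays, turned in both ranges at values that round to 0.00. Signal over background, not measured here, limits low-level genes such as DPT, LGR5 and MIR20B.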

Other observations

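Other gene groups lay close to 0 as lists while a few members stood out. Of 28 proteasome subunit genes 17 were higher and 11 lower on diets F and H, with a median of 0.04, and 4 had an unadjusted p under 0.05, all higher. They were PSMD14 (0.37), PSMD12 (0.29), PSMA4 (0.27) and PSMD6 (0.23), of which PSMD14 is the deubiquitinase of the regulatory particle. Without the 4 far-out arrays 1 of the 28 had such a p, and PSMD14 and PSMD12 had 0.28 and 0.21. Of 26 heat shock genes 16 were higher, 5 of them with an unadjusted p under 0.05 against 2 lower. The chaperones HSPA4L, DNAJA1 and HSPA4 had 0.33, 0.35 and 0.25, and the mitochondrial chaperone TRAP1 -0.26. Without the 4 far-out arrays 0 of the 26 heat shock genes had such a p, and TRAP1 had -0.15. Of 33 genes of endoplasmic reticulum folding and stress none reached an unadjusted p under 0.05, and their median was 0.01.

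Sterol synthesis genes were lower in 16 of 19 with a median of -0.07, which was -0.27 among title numbers up to 25 and 0.11 among those over 25, and -0.08 without the 4 far-out arrays. None had an unadjusted p under 0.05. Diet F minus diet A gave a median of 0.09, with 13 of 19 higher. Diet H minus diet E gave -0.26, with 16 lower. In fatty acid metabolism PPARD, a nuclear receptor for fatty acids, had 0.36, fatty acid synthase (FASN) -0.39 and the desaturase FADS1 -0.46, and 0.19, -0.19 and -0.19 without the 4 far-out arrays. Of 14 circadian clock genes 12 were higher, with the smallest p in NOCT, nocturnin, at 0.41 and a larger difference, at a larger p, in NFIL3 (0.45). The median of 0.09 became -0.09 without the 4 far-out arrays and 0.00 without replicate 2 of diet E alone. JCHAIN, the joining chain of secreted IgA and IgM, had 8.53, 9.24 and 12.24 on diets F and H and 8.93, 11.17 and 12.60 on diets A and E, and its difference of -1.32 (SE 0.606) had limma's adjusted p of 0.566. It was -2.31 among title numbers up to 25, -0.34 among those over 25 and -0.80 without the 4 far-out arrays. The remaining lists had medians near 0, which were 0.04 for 34 fatty acid oxidation genes, 0.00 for 16 fatty acid synthesis genes and 19 EGF receptor genes, -0.01 for 27 tight junction genes, -0.02 for 13 markers of enteric neurons and glia, -0.03 for 16 B and plasma cell and 12 erythroid markers, -0.04 for 11 pancreas acinar markers and -0.05 for 16 MHC genes.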
